A study of Mus musculus with 12 samples.

Results

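RAW264.7 macrophages lacking TFEB and TFE3 were compared with Null cells of the same line in the absence of drug, across all genes. RAW264.7 is a mouse macrophage cell line. The TFEB/TFE3 DKO cells were made with CRISPR, and the Null cells, which the text of the study calls WT, were their control. Each genotype was 1 line, so whatever else distinguishes the lines cannot be told apart from the loss of the 2 factors. The comparison used 6 of the 12 RNA-seq libraries, namely 3 Null control and 3 DKO control libraries, identified by their column names. Both groups were grown in high-glucose DMEM with fetal bovine serum and received no etoposide. The other 6 libraries, from the same lines after 8 h in 100 µM etoposide, a topoisomerase II poison, served to ask whether a difference was seen again and whether it changed with the drug. The study calls the etoposide samples independent, but neither it nor the labels say that the control replicates came from separate cultures, so the p-values measure the spread between libraries, which may be technical.

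TFEB and TFE3 belong to the MiT/TFE family of transcription factors, together with MITF and TFEC. In fed cells the kinase complex mTORC1 at the lysosome surface keeps them in the cytosol, and in starved or stressed cells they enter the nucleus and bind E-box sequences in front of lysosomal and autophagy genes, known as the CLEAR network. In macrophages they are also known for a part in the response to pathogens. How far the 2 lines differ before any stress is applied is the baseline against which a drug response is read.

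Without drug the lines differed in many gene groups. In DKO cells 31 of 38 interferon-stimulated genes were lower. Fc receptor and signalling genes (4 lower and 2 higher of 15) and cytokine and inflammatory enzyme genes (7 lower and 7 higher of 30) went both ways. Higher were 19 of 31 antioxidant and iron genes listed for the factor NRF2, 12 of 22 osteoclast genes, 10 of 21 integrin and adhesion genes and 10 of 26 immediate early genes. Of 16626 genes tested, 1139 were higher (6.85%) and 892 lower (5.37%) in DKO cells by limma-trend at a Benjamini-Hochberg adjusted p under 0.05. Over all genes the median log2 difference, DKO minus Null, was -0.007. Called genes with a difference of at least 1 on the log2 scale numbered 1083 (6.51%), with 541 higher (3.25%) and 542 lower (3.26%). The 3 libraries of each group did not overlap for 28.3% of the genes tested. The count of calls depended on single libraries. With all 6 libraries 2031 genes were called, or 12.2%. Leaving out Null replicate 2 gave 1158, and leaving out DKO replicate 2 gave 1245.

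Depth was 29837255 to 58697226 counts per control library, of which 14.1% to 18.3% came from mitochondrial transcripts. On the first principal component of the control libraries, with 64.5% of the variance, the genotypes separated. The second, with 22.1%, ran within both groups. Along this second direction Null replicate 1 lay with DKO replicates 2 and 3, and Null replicate 3 with DKO replicate 1. Genes that vary along it, such as Cd68, Cd14 and Ctsb below, have wide errors here. Levels below are CPM, that is, counts scaled to a common library size after TMM normalisation, and differences are DKO minus Null on the log2 scale with a prior count of 3, which understates the fold of genes near 0.

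Tfeb and Tfe3 were examined first. The protein-coding gene Tfeb (ENSMUSG00000023990.18), which spans 47737030 to 47792419 of chromosome 17 in GRCm38, stood at 17.2, 16.5 and 16.7 CPM in the Null libraries and at 3.10, 4.75 and 5.21 CPM in the DKO libraries. The groups were far apart, and the log2 difference was -1.96 with an SE of 0.200 (limma-trend adjusted p = 7.55e-04). Tfe3, also protein coding (ENSMUSG00000000134.17, 7762560 to 7775202 of chromosome X), stood at 120, 105 and 89.1 CPM in Null and at 31.1, 38.8 and 42.3 CPM in DKO libraries (log2 difference -1.47, SE 0.156, limma-trend adjusted p = 9.15e-04). Both transcripts were thus reduced and still present. Gene counts do not show whether the remaining RNA encodes protein, and the edited positions are not given in the sources used here. Of the other family members, Mitf was at 46.8 to 52.5 CPM in Null and at 58.1 to 60.3 CPM in DKO libraries, which did not pass the test (log2 difference 0.25, limma-trend adjusted p = 0.116), and Tfec was under the filter on low counts.

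Around the lysosomal nutrient sensor, 6 of 20 tested genes were lower and 0 higher, Tfeb and Tfe3 included, with a list median of -0.09. The other 4 were Sesn1, a stress-induced brake on mTORC1 (-1.40), Flcn, which encodes folliculin (-0.76), its partner gene Fnip1 (-0.77), and Lamtor4, a subunit of the Ragulator scaffold (-0.74). Folliculin and its partners act on the Rag GTPases that bring TFEB and TFE3 to the lysosome. Flcn lay at 32.6, 32.4 and 30.2 CPM in Null and at 21, 18.5 and 16.4 CPM in DKO libraries, and Lamtor4 at 10.8, 10.8 and 10.9 against 6.66, 5.96 and 6.60 CPM. The groups did not overlap for either gene. The Rag genes Rraga, Rragb and Rragc, the remaining Ragulator genes, Mtor and Rptor did not pass the test, with log2 differences between -0.30 and 0.32. Each of the 6 called genes was called lower again after etoposide, as were 85.4% of all lower genes tested there. Each was also called in every fit that left out 1 control library.

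The E-box core CACGTG, searched on both strands of the RefSeq promoter windows (250 bases before to 50 bases after the start, GRCm38.p6), was in 2 of the 6 lower genes of this group, Fnip1 and Lamtor4. It was in 11.7% of the promoters of the 10161 tested genes matched by symbol, in 10.9% of those of genes called higher and in 10.9% of those of genes called lower. Among the CLEAR genes 16 of 34 promoters held it, and 12 held the longer GTCACGTG, which 4.67% of all did. The windows of Fnip1 (chr11:54437929-54438228, plus strand) and Lamtor4 (chr5:138255232-138255531, plus strand) are shown 5′ to 3′ as the lower genes of the group that hold the motif, with CACGTG in capitals.
Fnip1: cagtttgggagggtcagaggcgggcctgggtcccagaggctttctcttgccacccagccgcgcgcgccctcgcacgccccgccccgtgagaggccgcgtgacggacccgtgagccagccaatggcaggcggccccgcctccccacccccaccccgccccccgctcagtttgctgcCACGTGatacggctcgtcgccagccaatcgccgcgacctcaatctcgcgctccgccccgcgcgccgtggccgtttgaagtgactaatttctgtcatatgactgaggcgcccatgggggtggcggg
Lamtor4: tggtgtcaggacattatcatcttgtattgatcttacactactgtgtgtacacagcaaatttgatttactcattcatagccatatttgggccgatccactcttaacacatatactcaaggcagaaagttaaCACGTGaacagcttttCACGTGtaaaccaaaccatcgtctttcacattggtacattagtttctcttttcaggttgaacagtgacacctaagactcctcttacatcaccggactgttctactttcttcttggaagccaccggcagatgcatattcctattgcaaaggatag
The first window holds 1 match and the second 2. Of all 19 matched promoters of the group 6 held the motif, and among CLEAR genes 0 of 3 lower and 2 of 3 higher ones did. A match is a description of the letters and not evidence of binding.

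Of 43 CLEAR genes tested, 4 were higher (9.30%) and 3 lower (6.98%), against 6.85% and 5.37% of all genes. Their median was -0.05, and without chromosome 9, which is described below, 2 were higher and 3 lower of 40. Sqstm1, which encodes the autophagy receptor p62 and is also a target of NRF2, was at 279, 304 and 320 CPM in Null and at 610, 525 and 507 CPM in DKO libraries (log2 difference 0.87, SE 0.111, limma-trend adjusted p = 0.0021). Ctsf (1.00), Glb1, the lysosomal beta-galactosidase (0.68), and Vps11 (0.61) were also higher, and Glb1 and Vps11 lie on that chromosome. Flcn, Gpnmb and Uvrag were lower. Gpnmb, a glycoprotein of phagocytes and melanosomes, was at 1.83, 1.29 and 0.720 CPM against 0, 0.212 and 0.0303 CPM (log2 difference -3.38). The call of Uvrag (-0.40) was lost without Null replicates 2 or 3 or DKO replicates 2 or 3, and the count of lower genes was 5 without Null replicate 1 or without DKO replicate 1 and 6 with DESeq2 or with a correction for GC content and length. Lamp1 at 595 to 719 CPM in Null and 470 to 595 CPM in DKO libraries and Mcoln1 (-0.05), which encodes a lysosomal calcium channel, did not pass the test. Of the 18 tested subunits of the V-ATPase, the pump that acidifies lysosomes, 1 was higher and 1 lower, and of 39 genes of the autophagy machinery and receptors 1 was higher (Sqstm1) and 1 lower (Uvrag). Each way these were 5.56% of the V-ATPase and 2.56% of the autophagy genes, against 6.85% and 5.37% of all genes. The higher V-ATPase count was 0 in every fit that left out 1 library except the one without DKO replicate 1, and the lower count was 2 without Null replicate 1. The higher autophagy count was 2 without DKO replicate 1, where the lower count was 2 as well. Atp6v0a1 was at 44.7, 39.8 and 36.1 CPM in Null and at 19.4, 23.4 and 23.1 CPM in DKO libraries. After etoposide that difference was -0.07 and was not called.

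Cathepsins, the lysosomal proteases, went both ways: 4 of 12 were lower and 3 higher. Ctsh lay at 33.3, 33.6 and 28.6 CPM in Null and at 0.946, 1.17 and 1.39 CPM in DKO libraries (log2 difference -4.69, SE 0.170, limma-trend adjusted p = 8.55e-06). Ctse, an aspartic protease of endosomes, fell from 76.9, 78.0 and 80.6 CPM to 3.12, 3.32 and 3.00 CPM (-4.60). Ctsc, which activates granule serine proteases, was lower by a smaller step (-0.81). The ubiquitous Ctsl rose from 154, 157 and 153 CPM to 286, 299 and 332 CPM (0.99). The abundant Ctsb ranged from 864 to 1562 CPM in Null and from 652 to 1422 CPM in DKO libraries, so the groups overlapped. Ctsh lies on chromosome 9, and without that chromosome 3 were lower and 3 higher of 11.

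**Figure D1:**
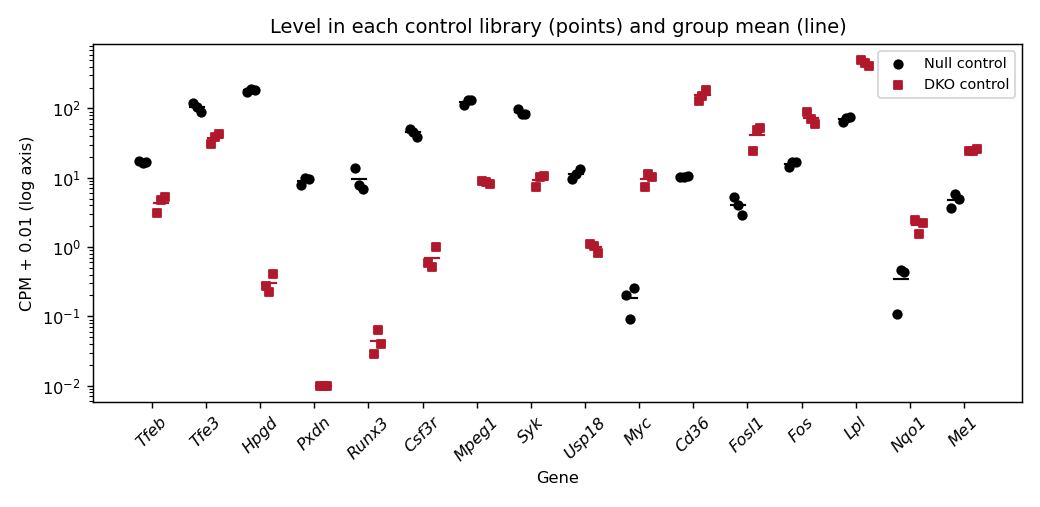
Level of 16 genes in each of the 6 control libraries, in CPM plus 0.01 on a log axis. Circles are Null and squares DKO libraries, and each short line is the mean of 3. Pxdn had no count in any DKO library. The groups do not overlap for any of the 16 genes, which were picked, several by a rule that required this. Over all genes tested the share without overlap was 28.3%.

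Some genes were read in 1 line and hardly at all in the other. With at most 3 counts in each library of 1 group and a mean of at least 5 CPM in the other, 6 genes were on only in Null cells and 3 only in DKO cells. Pxdn, which encodes the matrix peroxidase peroxidasin (ENSMUSG00000020674.16, chromosome 12, 29937608 to 30017658), was at 7.92, 9.90 and 9.48 CPM in Null libraries and had 0 counts in the 3 DKO libraries, so it was at least 435-fold higher in Null cells when 3 counts over the group are taken as the floor. Runx3, which encodes a transcription factor of lymphoid and myeloid cells (chromosome 4, 135120652 to 135177990), was at 13.6, 7.95 and 6.83 CPM against 5 counts in all DKO libraries, a ratio of 271 (95% counting interval 116 to 836). Batf, an AP-1 family factor, Abcd2, a fatty acid transporter of peroxisomes, and the collagen gene Col26a1 had 1, 1 and 3 counts in the DKO libraries. The sixth was Gm45540, an unclassified transcript. In the other direction Zhx2, a homeobox repressor gene, was at 9.57, 10.9 and 10.3 CPM in DKO libraries against 6 counts in all Null libraries, a ratio of 220 (101 to 600). Arhgap32, a GTPase-activating protein gene on chromosome 9, had 2 counts in Null libraries, and Ina had 3. Up to 94.6% of the counts of Ina could come from Nt5c2, which overlaps it on the other strand. These intervals cover counting error only.

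Among protein-coding genes of at least 5 CPM in the higher group, the largest log2 differences below 0 at a prior count of 3 were in Hpgd, Htr1b, Ranbp3l and Chst1. This order depends on the prior count, and Pxdn and Col26a1 came before Chst1 at a prior count of 1. Hpgd (ENSMUSG00000031613.9, chromosome 8, 56294585 to 56321043), which encodes the dehydrogenase that inactivates prostaglandins, was at 174, 190 and 187 CPM in Null and at 0.260, 0.212 and 0.394 CPM in DKO libraries (log2 difference -9.04, SE 0.192, limma-trend adjusted p = 1.26e-06). The serotonin receptor gene Htr1b was at 59.2, 60.8 and 59.1 CPM against 0.0556, 0.0707 and 0.0303 CPM (-8.99), and up to 14.9% of its counts could come from a gene on the other strand. Ranbp3l went from 47.5, 55.8 and 66.5 CPM to 0.111, 0.0177 and 0.212 CPM (-8.44), and Chst1, a sulfotransferase gene, from 105, 91.1 and 82.6 CPM to 0.223, 0.194 and 0.454 CPM (-8.08). In each of the 4 genes the highest DKO library was under 1 CPM. At a prior count of 3 the remaining 11 of the 15 ran from -7.61 (Col26a1) to -6.11 (Arhgap24, a GTPase-activating protein gene). Besides Pxdn, Runx3, Abcd2 and Batf they included the circadian repressor gene Bhlhe41 (-6.92, with up to 23% of its counts from an overlapping gene), Ppfibp2 (-6.85), the Arf GTPase-activating protein gene Agap2 (-6.55), the RNA-binding protein gene Rbpms (-6.28) and the sialyltransferase gene St6gal1 (-6.26).

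The largest log2 differences above 0 at a prior count of 3 were in Bicd1, Sema6d, Zhx2 and Grap2. Here too the order depends on the prior count, and the ratio of Arhgap32 by counts was 370 (102 to 3053). Bicd1 (ENSMUSG00000003452.15, chromosome 6, 149408886 to 149563329), a cargo adaptor of the dynein motor, was at 0, 0.0603 and 0.144 CPM in Null and at 17.7, 21.1 and 23.5 CPM in DKO libraries (log2 difference 7.43, SE 0.401, limma-trend adjusted p = 3.63e-05). The semaphorin gene Sema6d went from 0.228, 0.362 and 0.267 CPM to 37.1, 35.9 and 38.9 CPM (6.76), and Grap2, an adaptor of lymphocyte receptors, from 0.0326, 0.0603 and 0.0822 CPM to 10.4, 8.20 and 7.69 CPM (6.17). Myc, the proto-oncogene (chromosome 15, 61985391 to 61990374), was close to silent in Null libraries at 0.196, 0.0805 and 0.247 CPM and stood at 7.38, 11.2 and 10.4 CPM in DKO libraries (5.39). Angptl2, a secreted angiopoietin-like protein gene, was at 1.92, 1.31 and 1.40 CPM against 61.3, 55.1 and 53.3 CPM (5.16). The others of the 15 were Arhgap32 (6.09), Ildr2 (5.80), Ina (5.78), Nxf7 (5.61), the G protein regulator Rgs16 (5.50, with up to 16.2% of its counts from an overlapping gene), Osbpl10 (5.0), Rnf217 (4.70), Ocstamp (4.63) and Tcaf1 (4.50).

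Chromosome 9 stood apart from every other chromosome. Over protein-coding genes with a mean of at least 5 CPM (9443 genes, 526 of them on chromosome 9), the median log2 difference on chromosome 9 was 0.508, whereas the medians of the other 18 autosomes and chromosome X lay between -0.028 and 0.058. On chromosome 9, 45.4% of these genes were called higher and 2.09% lower, against 5.47% and 4.73% of the genes elsewhere, and 85.7% had a positive difference. Chromosome 9 held 26.3% of all higher calls (300 of 1139) and 5.42% of the genes tested. It supplied 7.19%, 7.43% and 7.51% of the protein-coding counts in the Null libraries and 9.69%, 9.56% and 9.42% in the DKO libraries, with no overlap. The median was 0.459 to 0.529 in fits that left out 1 library.

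The shift did not cover the whole chromosome. In windows of 10000000 bases, the 6 windows from 10000001 to 70000000 had medians between 0.53 and 0.65. The 3 windows from 70000001 to 100000000 had medians of 0.02, -0.02 and 0.00 over 37, 22 and 24 genes. The window from 100000001 to 110000000 was intermediate (0.24, 87 genes), and beyond it the medians were 0.54 and 0.53. Of the 60 genes between 20000001 and 30000000, 100% were higher in DKO libraries and 40 were called. The same profile appeared after etoposide, with medians of 0.45 to 0.67 in the first 6 of these windows, -0.02 to 0.15 in the next 3 and 0.62 to 0.66 in the last 2. DNA copy number was not measured, and the part of chromosome 9 as a whole in the difference of any one gene on it was not tested. With chromosome 9 left out, 835 genes were higher (5.29%) and 802 lower (5.08%) of 15793. Counts for the gene groups below are therefore also given without it where it held called members.

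**Figure D2:**
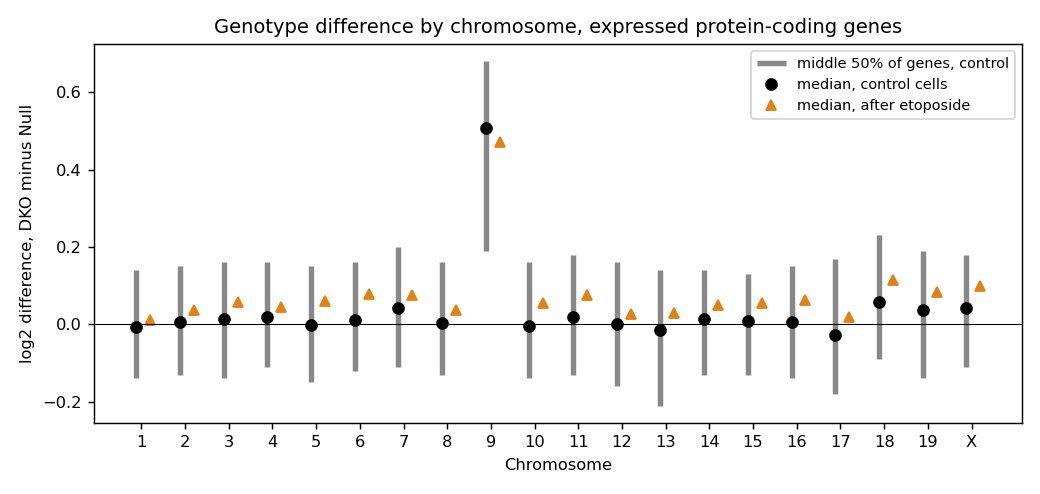
Median log2 difference between DKO and Null libraries for each chromosome, over protein-coding genes of at least 5 CPM. Circles are control cells, with a bar from the first to the third quartile of genes, and triangles are cells after etoposide. Chromosome 9 lies at 0.508 and 0.471, and no other chromosome exceeds 0.058 in control cells.

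Interferon-stimulated genes encode antiviral proteins, and type I interferon induces them through the receptor IFNAR and the kinases JAK1 and TYK2. Of 38 tested, 31 were lower and 0 higher in DKO cells, and the median was -1.12. None lies on chromosome 9. Slfn5 (chromosome 11, 82951349 to 82964840), a member of the Schlafen family, was at 6.95, 6.92 and 8.04 CPM in Null and at 0.334, 0.371 and 0.212 CPM in DKO libraries (log2 difference -4.32, SE 0.224, limma-trend adjusted p = 2.95e-05). Usp18, which removes ISG15 and restrains the receptor, fell from 9.46, 11.2 and 13.3 CPM to 1.11, 1.01 and 0.818 CPM (-3.43). Rtp4 went from 16.2, 14.3 and 13.7 CPM to 1.34, 1.82 and 2.70 CPM (-2.92) and Ifi27l2a from 16.9, 16.9 and 16.5 CPM to 2.28, 2.53 and 2.18 CPM (-2.81). The groups were separate in all 4 genes. Mx2, a dynamin-like antiviral GTPase gene (-2.63), and Cmpk2 (-2.58) completed the 6 largest falls from levels of 0.543 to 1.75 CPM.

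Components of the response itself were lower by smaller steps. Irf7 was at 23.7, 18.3 and 15.5 CPM against 6.10, 7.99 and 7.39 CPM (-1.39) and Irf9 at 39.9, 41.5 and 38.9 against 22, 23.9 and 21.2 CPM (-0.83). Both genes were named after their values were seen. The 7 genes that were not called included Stat2 (-0.25) and Oasl1, the only one with a positive difference (0.28). Without Null replicate 2 the number of lower genes was 20, and it was 25 to 30 without any other library. After etoposide 37 of 38 were lower, the 31 among them, against 23.4% of all genes tested there. Of all genes lower in control cells and tested there, 85.4% were called lower again. Isg15, Ifit3 and Mx1 were under the filter on low counts.

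Of 23 genes that make and sense interferon, 2 were higher (8.70%) and 3 lower (13%), with a median of -0.05. Ifnar1 was at 64.7 to 70.1 CPM in Null and 76.2 to 86.5 CPM in DKO libraries (0.28, not called), and the kinase genes Jak1 and Tyk2 had overlapping groups (up to 31.9% of the counts of Tyk2 could come from another gene). Ifnb1, which encodes interferon beta, was under the filter in both lines. The 5 calls, among them Irf8 (-0.42), a myeloid regulator, and the receptor subunit gene Ifngr2 (0.38), were all lost without Null replicate 2 or 3 or without DKO replicate 2 or 3. Of 25 genes of MHC presentation, 6 were lower and 0 higher. H2-T23, a nonclassical class I gene, was at 10.6, 11.3 and 14.0 CPM against 5.80, 4.33 and 4.79 CPM (-1.25), and Nlrc5, the activator of class I genes, had a difference of -0.59. B2m (-0.33), which encodes the light chain of class I molecules, had overlapping groups. Only 1 of the 6 was called without Null replicate 2 or without DKO replicate 2, and 2 were without DKO replicate 3.

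Interferon-responsive promoters carry a repeat of GAAA. A pair of GAAA with any 2 bases between them, on either strand, was found in 15 of the 28 promoters of interferon-stimulated genes matched, and in 13 of the 22 that were called lower. Over the 10161 matched genes the share was 3.77%, and it was 9.05% among all 608 genes called lower and 2.85% among 841 called higher. The 3 lower genes of the list with the largest differences among those with a match were Slfn5 (chr11:82951852-82952151, plus strand), Ifit1 (chr19:34640639-34640938, plus strand) and Trim30a (chr7:104465144-104465443, minus strand). Their windows from RefSeq (GRCm38.p6) are shown 5′ to 3′ on the strand of the gene, with the motif or its complement in capitals, to show how differently it can be placed.
Slfn5: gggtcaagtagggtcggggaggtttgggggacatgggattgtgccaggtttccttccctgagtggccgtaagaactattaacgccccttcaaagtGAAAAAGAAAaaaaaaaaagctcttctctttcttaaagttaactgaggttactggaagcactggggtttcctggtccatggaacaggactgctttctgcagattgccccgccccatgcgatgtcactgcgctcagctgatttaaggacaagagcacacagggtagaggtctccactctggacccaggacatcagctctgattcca
Ifit1: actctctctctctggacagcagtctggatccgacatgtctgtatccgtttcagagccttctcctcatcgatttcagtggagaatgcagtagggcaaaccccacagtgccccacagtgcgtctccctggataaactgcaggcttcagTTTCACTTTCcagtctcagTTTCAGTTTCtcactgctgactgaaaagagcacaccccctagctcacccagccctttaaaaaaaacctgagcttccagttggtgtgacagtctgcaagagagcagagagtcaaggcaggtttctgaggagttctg
Trim30a: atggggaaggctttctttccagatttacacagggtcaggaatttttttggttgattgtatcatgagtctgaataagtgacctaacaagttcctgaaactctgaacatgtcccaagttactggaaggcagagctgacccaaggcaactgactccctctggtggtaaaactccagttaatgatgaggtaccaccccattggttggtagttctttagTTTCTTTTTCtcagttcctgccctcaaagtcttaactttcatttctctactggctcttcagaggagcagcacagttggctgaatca
The first holds 1 match on the strand shown. The second holds 2 matches and the third 1, all on the other strand. Trim30a was at 24.1, 21.6 and 20 CPM in Null and 5.51, 7.48 and 8.33 CPM in DKO libraries (-1.62). The call of Ifit1 (-2.02) was lost in 4 of the 6 fits that left out 1 library.

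NRF2 is the transcription factor that KEAP1 marks for destruction until oxidants or electrophiles release it, and its targets make glutathione, supply NADPH and handle iron and quinones. Of 31 genes listed for antioxidant defence and iron, regulators included, 19 were higher and 1 lower, with a median of 0.65. Without the 4 members on chromosome 9 the counts were 16 higher and 1 lower of 27, with a median of 0.59. With all 31 members the higher count was 14 without Null replicate 2 or DKO replicate 2, and 16 to 19 without any other library. All 19 higher genes were called higher after etoposide too, as were 85.9% of all genes higher in control cells and tested there. Gstm1, a glutathione transferase gene (chromosome 3, 108012255 to 108017973), was at 1.11, 0.825 and 1.23 CPM in Null and at 6.53, 7.88 and 7.79 CPM in DKO libraries (log2 difference 2.76, SE 0.195, limma-trend adjusted p = 1.39e-04). Nqo1, which encodes the quinone reductase used as a readout of NRF2, was at 0.0978, 0.463 and 0.432 CPM against 2.47, 1.54 and 2.18 CPM (2.58). Me1, the cytosolic malic enzyme gene, rose from 3.65, 5.83 and 4.85 CPM to 24.1, 24.7 and 25.9 CPM (2.40). Me1 lies on chromosome 9 between 80000001 and 90000000, where the median difference was -0.02.

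The iron genes of the group included the largest changes in both directions. Steap3, a ferrireductase gene, was at 0.391, 0.664 and 0.370 CPM in Null and at 4.25, 6.01 and 5.94 CPM in DKO libraries (3.37), and Slc40a1, which encodes the iron exporter ferroportin, at 0.457, 0.261 and 0.391 against 3.23, 2.47 and 2.18 CPM (2.64). Cp, which encodes ceruloplasmin, the copper oxidase that loads iron onto transferrin, was the only lower member, at 240, 192 and 189 CPM against 6.84, 7.25 and 9.63 CPM (-4.70). Of the genes of the switch itself, Nfe2l2, which encodes NRF2, was at 145 to 163 CPM in Null and 143 to 174 CPM in DKO libraries (0.04, not called). Keap1, on chromosome 9, was higher by 0.56, and its call was lost without Null replicate 2 or without DKO replicate 2. The ferritin genes Fth1 (0.16) and Ftl1 (0.39, with up to 45.3% of its counts from another gene) had overlapping groups.

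The pattern TGACNNNGC, chosen after the list had been seen to move, stands for the antioxidant response element. It was in 9 of 26 matched promoters of the group and in 7 of the 15 called higher, against 16.6% of all matched genes and 17% of all genes called higher. The group's share was 34.6%. The pattern was also in 11 of 34 promoters of CLEAR genes (32.4%), 7 of 28 of interferon-stimulated genes (25%) and 4 of 19 of the nutrient-sensing group (21.1%). The windows of Me1 (chr9:86695865-86696164, minus strand) and Srxn1 (chr2:152105274-152105573, plus strand), the higher members with a match that differed most, follow with the match in capitals, on the strand shown for Me1 and on the other strand for Srxn1.
Me1: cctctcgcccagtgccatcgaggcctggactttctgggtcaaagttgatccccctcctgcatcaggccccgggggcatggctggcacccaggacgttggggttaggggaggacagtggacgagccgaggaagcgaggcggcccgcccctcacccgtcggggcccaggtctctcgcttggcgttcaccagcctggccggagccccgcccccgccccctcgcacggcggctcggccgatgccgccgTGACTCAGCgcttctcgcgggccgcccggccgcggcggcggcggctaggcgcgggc
Srxn1: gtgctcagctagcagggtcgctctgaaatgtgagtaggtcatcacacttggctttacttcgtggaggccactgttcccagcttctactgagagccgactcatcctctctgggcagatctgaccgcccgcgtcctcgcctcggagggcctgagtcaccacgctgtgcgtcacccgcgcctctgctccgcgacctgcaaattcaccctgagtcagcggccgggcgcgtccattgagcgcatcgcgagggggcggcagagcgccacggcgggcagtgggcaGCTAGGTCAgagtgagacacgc
Srxn1, which encodes sulfiredoxin, was at 18, 20.7 and 25 CPM in Null and at 57.9, 43.2 and 41.7 CPM in DKO libraries (1.17).

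**Figure D3:**
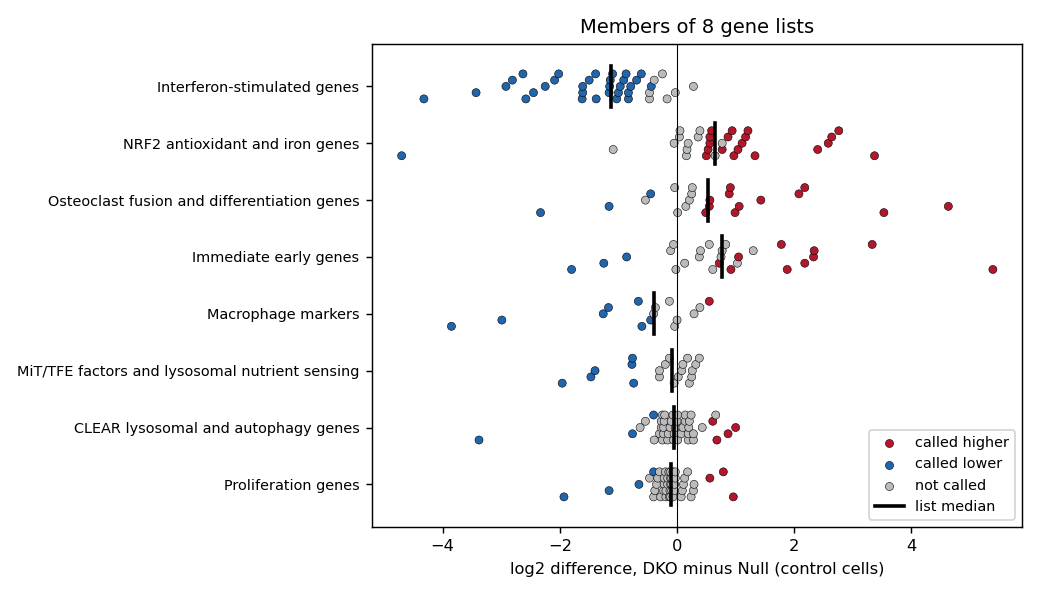
Log2 difference, DKO minus Null in control cells, of each tested member of 8 gene groups. Each point is 1 gene, coloured by its call, and the thick line is the median of the group. The interferon-stimulated genes have a median of -1.12 and the NRF2 group 0.65, whereas the CLEAR and proliferation groups have medians of -0.05 and -0.11.

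The macrophage identity of both lines was checked with 16 markers. In the 6 control libraries 15 were tested, and Mertk had no count in any. The summed level of the list was 6705 to 6921 CPM in Null and 5269 to 5765 CPM in DKO libraries. Of the 15, 7 were lower and 1 higher, with a median of -0.40. Mpeg1, which encodes the pore-forming protein perforin-2 of phagosomes (chromosome 19, 12460779 to 12465283), was at 111, 133 and 133 CPM in Null and at 8.99, 8.61 and 8.18 CPM in DKO libraries (log2 difference -3.85, SE 0.106, limma-trend adjusted p = 4.56e-06). The sialic acid receptor gene Cd33 went from 148, 153 and 127 CPM to 14.9, 19.0 and 19.8 CPM (-2.99), and Aif1 from 3.59, 3.84 and 3.76 CPM to 1.65, 1.38 and 1.85 CPM (-1.17). The defining Csf1r, the receptor of macrophage colony-stimulating factor, remained high at 1632 to 1844 CPM in Null and 1175 to 1414 CPM in DKO libraries (-0.45). Adgre1, which encodes F4/80, was at 78.9 to 125 CPM against 78.5 to 113 CPM (-0.13), and Ptprc, Cd68, Cd14, Fcer1g, Tyrobp and Laptm5 did not pass the test either. Spi1, the master regulator PU.1, was at 231, 230 and 201 CPM against 306, 343 and 314 CPM (0.55). The calls of Csf1r, Itgam (-0.66), Lyz2 (-0.60) and Spi1 were each lost in 3 to 5 of the 6 fits that left out 1 library. The lower count of the list was 4 without Null replicate 2 or DKO replicates 2 or 3, and the higher count was 0 without Null replicates 2 or 3 or DKO replicate 2 and 2 without DKO replicate 1. Up to 62.1% of the counts of Itgam could come from an overlapping gene.

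Markers of other cells were summed in each library. Of 8 fibroblast markers 6 had no count in the control libraries, and their summed level was 0.644 to 0.925 CPM in Null and 0.151 to 0.260 CPM in DKO libraries. The summed granulocyte markers (12 listed, 5 with no count) reached 1.5 to 2.06 CPM against 0.697 to 0.884 CPM, and the mast cell markers (7 measured, 4 with no count) 0.946 to 1.09 against 0.247 to 0.394 CPM. T and NK cell markers (8 measured, 3 with no count) were at 3.66 to 4.21 against 5.94 to 6.90 CPM. The B cell list (10 listed, 4 with no count) was at 76.7 to 90.9 CPM in Null and 15.2 to 16.5 CPM in DKO libraries, nearly all of it Blnk, a signalling adaptor, at 89.1, 86.5 and 74.7 against 14.7, 15.7 and 15.9 CPM (-2.42). Ms4a1 had no count. The dendritic cell list (9 measured, 1 with no count) was at 27.7 to 28.8 against 10.3 to 11.4 CPM. Within it Cd83 (-2.14) and Siglech, a receptor of plasmacytoid dendritic cells (-4.55), were lower and Itgax was higher.

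Growth factor receptors and transcription factors of the myeloid lineage changed in both directions: 7 of 26 were higher and 9 lower. Csf3r, the receptor of granulocyte colony-stimulating factor (chromosome 4, 126024550 to 126044440), was nearly lost, from 50.6, 46.0 and 39.2 CPM to 0.575, 0.513 and 1.000 CPM (log2 difference -5.93, SE 0.246, limma-trend adjusted p = 1.31e-05). Gfi1, a repressor needed for granulocyte formation, was at 1.43, 2.11 and 1.91 CPM against 0, 0.177 and 0 CPM (-4.19), and Irf4, a factor of alternatively activated macrophages, at 4.17, 4.73 and 4.54 against 1.11, 1.41 and 1.58 CPM (-1.67). Runx3 and Cebpe (-1.37) were also lower. Among the higher genes, Egr2 was at 2.32, 1.75 and 1.27 CPM against 5.73, 11.1 and 11 CPM (2.33). The call of Nr4a1 (1.78) was lost without Null replicate 2 or without DKO replicates 2 or 3. The number of higher genes was 4 without Null replicate 2 or without DKO replicate 2.

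Fc gamma receptors bind antibody-coated particles and signal through a common chain, encoded by Fcer1g, to the kinase SYK. Of 15 genes of this group 4 were lower, namely Syk and the receptor genes Fcgr2b, Fcgr3 and Fcgr1, and 2 were higher. Syk (chromosome 13, 52583173 to 52648792) was at 97.0, 83.5 and 82.0 CPM in Null and at 7.42, 10.1 and 10.7 CPM in DKO libraries (log2 difference -3.21, SE 0.160, limma-trend adjusted p = 2.68e-05). The inhibitory receptor gene Fcgr2b was at 18.7, 22 and 25.3 against 5.71, 4.95 and 4.39 CPM (-2.11), Fcgr3 at 4.73, 5.05 and 4.71 against 1.61, 1.01 and 1.64 CPM (-1.74), and the high-affinity receptor gene Fcgr1 at 67.3, 74.0 and 67.0 against 28.1, 29.9 and 28.2 CPM (-1.26). All 4 calls held in each fit that left out 1 library. The chain gene Fcer1g (-0.40) was not called. Fcrl1 was higher at 13.8, 17.1 and 20.6 against 47.3, 35.9 and 32.9 CPM (1.18), and the call of Fcgrt (0.64) was lost in 4 of the 6 fits that left out 1 library.

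Other receptor families split. Of 14 C-type lectins and Siglecs 5 were higher and 5 lower. Clec4d, which encodes a receptor of mycobacterial lipid, was at 28.4, 37.3 and 36.3 CPM against 75, 75.6 and 71.6 CPM (1.14), Clec4n, which encodes dectin-2, was at 0.0326 to 0.181 against 0.972 to 1.45 CPM (2.91), and the inhibitory Clec4a1 fell from 5.12, 5.55 and 6.66 CPM to 1.35, 1.38 and 1.33 CPM (-2.02). The lower calls numbered 2 without Null replicate 2 or 3 and 3 without DKO replicate 2, and the higher calls 3 without Null replicate 2 or without DKO replicate 3. Of 21 Toll-like receptor and adaptor genes 3 were higher and 5 lower. The nucleic acid sensor genes Tlr8 (-2.87) and Tlr13 (-1.37) were lower, Tlr13 from 34.9, 39.0 and 41.0 CPM to 15.5, 14.4 and 14.1 CPM. The adaptor genes Myd88 (0.85) and Tirap (1.00), both on chromosome 9, were higher, and 1 higher gene was left without that chromosome. All 3 higher genes overlap another gene, and of the 13 tested that do not, 0 were higher and 4 lower. Up to 7.52% of the counts of Myd88 and 6.63% of those of Tirap could come from the overlapping gene. Tlr4, the endotoxin receptor gene, had overlapping groups (-0.13). Only 2 of the 5 lower genes were called without Null replicate 2 or 3 or without DKO replicate 2. Of 16 complement genes 5 were lower and 2 higher, and C3, the central component, was at 18.3, 14.6 and 14.2 CPM against 3.52, 3.52 and 3.73 CPM (-2.09). Cfp, which encodes the stabilising factor properdin, went from 142, 148 and 156 CPM to 70.9, 62 and 55.8 CPM (-1.24). The lower count was 3 without Null replicates 1 or 2 or DKO replicates 2 or 3, and the higher count 1 without Null replicates 1 or 2 or DKO replicate 3.

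Osteoclasts arise from macrophage precursors by fusion, and RAW264.7 cells are widely used to form them. Of 22 genes of fusion and differentiation 12 were higher and 3 lower, with a median of 0.52. Ocstamp and Dcstamp encode membrane proteins required for fusion. Ocstamp was at 0.326, 0.503 and 0.206 CPM in Null and at 8.38, 11.5 and 9.24 CPM in DKO libraries (log2 difference 4.63, SE 0.292, limma-trend adjusted p = 7.66e-05), and Dcstamp at 2.77, 2.88 and 3.19 against 16.0, 12.3 and 10.1 CPM (2.08). Acp5, the tartrate-resistant acid phosphatase of osteoclasts, on chromosome 9 at 22126727 to 22135711, was at 0.196, 0.0805 and 0.288 against 2.54, 3.06 and 2.45 CPM (3.53). Tnfrsf11a, which encodes the receptor RANK and was named after its values were seen, was at 94.8, 80.8 and 79.3 against 151, 180 and 199 CPM (1.06). Car2, the carbonic anhydrase gene of bone resorption, went the other way, from 734, 925 and 968 CPM to 204, 161 and 153 CPM (-2.33). Ctsk, Calcr, Itgb3 and Oscar, markers of mature osteoclasts, were under the filter in both lines. The 12 higher genes were again called higher after etoposide, as were 85.9% of all higher genes tested there. Without chromosome 9 the counts were 11 higher and 3 lower of 21, and the lower count was 1 without Null replicates 2 or 3 or DKO replicates 2 or 3. The higher count was 8 without Null replicate 2, 9 without DKO replicate 2 and 10 without Null replicate 3 or DKO replicate 3.

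Integrins and other adhesion genes were also more often higher, 10 of 21 against 2 lower, and without chromosome 9, 9 of 20 against 2. Itgax, which encodes CD11c, was at 0.0978, 0.161 and 0.473 CPM in Null and 3.93, 3.8 and 3.82 CPM in DKO libraries (log2 difference 3.86, SE 0.419, limma-trend adjusted p = 0.00101). The fibronectin receptor gene Itga5 was at 28.6, 19.4 and 17.6 against 48.4, 76.4 and 83.8 CPM (1.67), the hyaluronan receptor gene Cd44 at 149, 160 and 156 against 383, 430 and 432 CPM (1.43), and the tetraspanin gene Cd9 at 132, 103 and 108 against 182, 246 and 253 CPM (0.99). The most abundant member, Itga4, was lower, at 3000, 2679 and 2413 CPM against 1012, 1450 and 1686 CPM (-0.98), but its call was lost without Null replicates 1 or 2 or DKO replicate 2. Itgam was the other lower gene, and the lower count was 0 or 1 without Null replicates 1 or 2 or DKO replicates 2 or 3.

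Scavenger receptors and lipid handling genes were higher in 9 of 27 cases and lower in 2. Cd36, a receptor for oxidised lipoprotein and fatty acids (chromosome 5, 17781690 to 17888801), was at 10.4, 10.3 and 10.7 CPM in Null and at 130, 150 and 186 CPM in DKO libraries (log2 difference 3.88, SE 0.138, limma-trend adjusted p = 8.09e-06). Lpl, which encodes lipoprotein lipase, was at 63.6, 73.2 and 75.9 against 496, 448 and 414 CPM (2.68). Cd5l, a secreted macrophage protein gene, was at 0, 0.101 and 0 against 1.11, 1.04 and 1.000 CPM (3.64). Pltp had a difference of 1.26, but it overlaps the more abundant Ctsa on the other strand, so that all of its counts could be shared. Apoe (-0.39) was not called. The lower count, which included Apoc2 (-2.41, with up to 84.4% of its counts from an overlapping gene), was 1 without Null replicates 2 or 3 or DKO replicates 2 or 3. Without chromosome 9 the higher count was 8 of 26. Over all 27 genes it was 6 to 8 in fits that left out 1 library.

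Immediate early genes respond to growth factor and stress signalling within minutes. Of 26, 10 were higher and 3 lower, with a median of 0.76. DESeq2 called 16 higher, as did the fit of all 12 libraries. The higher count was 7 without Null replicate 2, 8 without DKO replicates 2 or 3 and 15 without DKO replicate 1. Myc, above, was one of the 10 higher genes, and the AP-1 genes Fosl1 and Fos were others. Fosl1 was at 5.18, 4.08 and 2.86 CPM in Null and at 24.7, 49.2 and 52.2 CPM in DKO libraries (log2 difference 3.33, SE 0.330, limma-trend adjusted p = 6.36e-04), and Fos at 14.4, 16.6 and 16.7 against 88.9, 70.3 and 59.0 CPM (2.18). The phosphatase genes Dusp4 and Dusp5, which switch off nuclear ERK, were at 14.3, 13.8 and 17.1 against 61.0, 50.8 and 54.5 CPM (1.88) and at 1.37, 1.83 and 1.69 against 7.71, 8.29 and 9.21 CPM (2.34). Dusp6, the cytosolic counterpart, was lower (-1.25), as was the stress factor gene Atf3 (-1.80). Both were named after their values were seen. Egr1 (-0.06) and Jun (-0.02) had overlapping groups.

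In the p53 group 9 of 37 genes were higher and 2 lower in cells that had received no DNA-damaging drug, and without chromosome 9, 8 of 36 were higher and 2 lower. The higher count was 7 without Null replicate 2 or DKO replicate 2 and 12 without DKO replicate 1. Cdkn1a, which encodes the cell cycle inhibitor p21, was at 53.5, 49.8 and 41.3 CPM in Null and at 89.0, 117 and 111 CPM in DKO libraries (log2 difference 1.14, SE 0.146, limma-trend adjusted p = 0.0022). The kinase gene Plk2 was at 0.0652, 0 and 0 against 1.5, 1.66 and 1.54 CPM (4.30), and the death receptor gene Tnfrsf10b at 0.391, 0.744 and 0.288 against 3.23, 3.82 and 3.39 CPM (2.81). Eda2r (2.39) and Fas (1.29), which encode other receptors of that family, were higher too. Mdm2 (0.32) was not called, and Trp53 had overlapping groups at 263 to 612 and 266 to 745 CPM. Of 46 proliferation genes 3 were higher (6.52%) and 4 lower (8.70%), against 6.85% and 5.37% of all genes, and their median was -0.11. Mki67 was at 1546 to 1674 CPM in Null and 1291 to 1480 CPM in DKO libraries and was not called. The replication helicase genes Mcm5, at 430, 452 and 442 against 193, 197 and 199 CPM (-1.16), and Mcm6 (-0.65) were lower, and Ccnd2, at 19.1, 15.7 and 16.6 against 4.02, 4.15 and 5.06 CPM (-1.93), was lower whereas its relative Ccnd1 was higher (0.56). Kif23 (0.79), a kinesin gene of cytokinesis, lies on chromosome 9, without which 2 were higher and 4 lower of 44. The lower count was 7 without DKO replicate 1.

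Inflammatory enzymes and cytokines changed in both directions, with 7 of 30 higher and 7 lower, or 7 higher and 6 lower of 28 without chromosome 9. The largest falls were in 3 enzymes of activated macrophages. Nos2, the inducible nitric oxide synthase gene, was at 13.4, 11.9 and 10.8 CPM in Null and at 0.278, 0.460 and 0.303 CPM in DKO libraries (log2 difference -4.88, SE 0.216, limma-trend adjusted p = 1.66e-05). Alox5, which begins leukotriene synthesis, was at 65.1, 63.8 and 61.3 against 4.41, 4.86 and 5.73 CPM (-3.65), and Acod1, which makes itaconate, at 46.8, 50.5 and 53.9 against 9.01, 9.72 and 9.63 CPM (-2.39). The cyclooxygenases moved oppositely: Ptgs2 was at 11.2, 12 and 13.3 against 48.5, 48.3 and 52.7 CPM (2.04) and Ptgs1 at 7.17, 6.92 and 7.50 against 1.95, 2.49 and 1.79 CPM (-1.77). With Hpgd, the prostaglandin genes thus included a synthetic enzyme that was higher and the inactivating enzyme that was lower. The interleukin 4 receptor gene Il4ra was lower (-2.26), and Il1b had overlapping groups under 1 CPM. The higher count was 3 without Null replicate 2 or without DKO replicate 2, and 4 without Null replicate 3 or without DKO replicate 3.

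Of 28 chemokine genes and receptors 12 passed the filter on low counts. Of these, 2 were higher, Cxcl16 at 64.9, 67.6 and 69.3 against 138, 134 and 138 CPM (1.03) and Ccl4 (1.08), and 3 were lower, among them the receptor gene Cxcr4 at 1.5, 1.15 and 0.925 against 0, 0.159 and 0 CPM (-3.63). The higher count was 1 without Null replicate 2 and 5 without DKO replicate 1. Without chromosome 9, which holds Ccrl2 (-1.77) and Cx3cr1 (-0.54), 1 lower gene was left. Of 21 inflammasome genes 2 were higher and 2 lower, or 9.52% each, against 6.85% and 5.37% of all genes. Ninj1, which ruptures the membrane of dying cells, was at 15.7, 17.9 and 18.3 against 58.7, 50.6 and 44.2 CPM (1.56), and Casp1, on chromosome 9, at 50, 49.3 and 54.1 against 79.5, 87.8 and 89.6 CPM (0.75). Nlrp3 (0.54) was not called, and without chromosome 9 the inflammasome counts were 1 higher and 2 lower of 18. Of 21 NF-kB subunits and inhibitors 2 were higher and 1, the deubiquitinase gene Tnfaip3, was lower, at 12.1, 11.4 and 11.7 against 7.10, 5.64 and 6.54 CPM (-0.86). Those were 9.52% and 4.76% of the NF-kB group. Without chromosome 9 the NF-kB counts were 1 higher and 1 lower of 20. In both groups counts of 2 became 1 without Null replicates 2 or 3 or DKO replicates 2 or 3, for the lower inflammasome and the higher NF-kB genes.

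Of 34 sterol synthesis genes 2 were higher and 1 lower, of 32 glycolysis and hypoxia genes 2 were higher and 4 lower, and of 36 ATF4 and amino acid genes 2 were higher and 0 lower. The share lower was 12.5% for glycolysis and hypoxia and 2.94% for sterol synthesis, against 5.37% of all genes. The share higher was 5.88%, 6.25% and 5.56% for the sterol, glycolysis and ATF4 groups, against 6.85%. Without chromosome 9 the sterol counts were 0 higher and 1 lower of 31, and the glycolysis counts 1 higher and 4 lower of 30. Scap (0.54), of the sterol group, and Pkm, the pyruvate kinase gene (0.77), lie on that chromosome. The desaturase gene Scd1 was lower, at 31.9, 32.0 and 33.9 against 15.9, 14.9 and 13.3 CPM (-1.14), and so was the hexokinase gene Hk3, at 16.6, 19.4 and 22.7 against 5.62, 4.05 and 3.27 CPM (-2.18). Cbs, which encodes an enzyme of cysteine synthesis, was higher at 0.880, 0.684 and 0.925 against 2.63, 2.72 and 2.27 CPM (1.56). The calls of Scap, Pkm and Slc7a11 (0.53) were lost without Null replicate 2 or without DKO replicate 2, and the lower glycolysis count was 2 without Null replicates 2 or 3 or DKO replicates 2 or 3. Without Null replicate 2 or DKO replicate 2 the higher count was 1 in each of the 3 metabolic groups, and without DKO replicate 1 the lower sterol count was 3 and the lower ATF4 count 1.

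**Figure D4:**
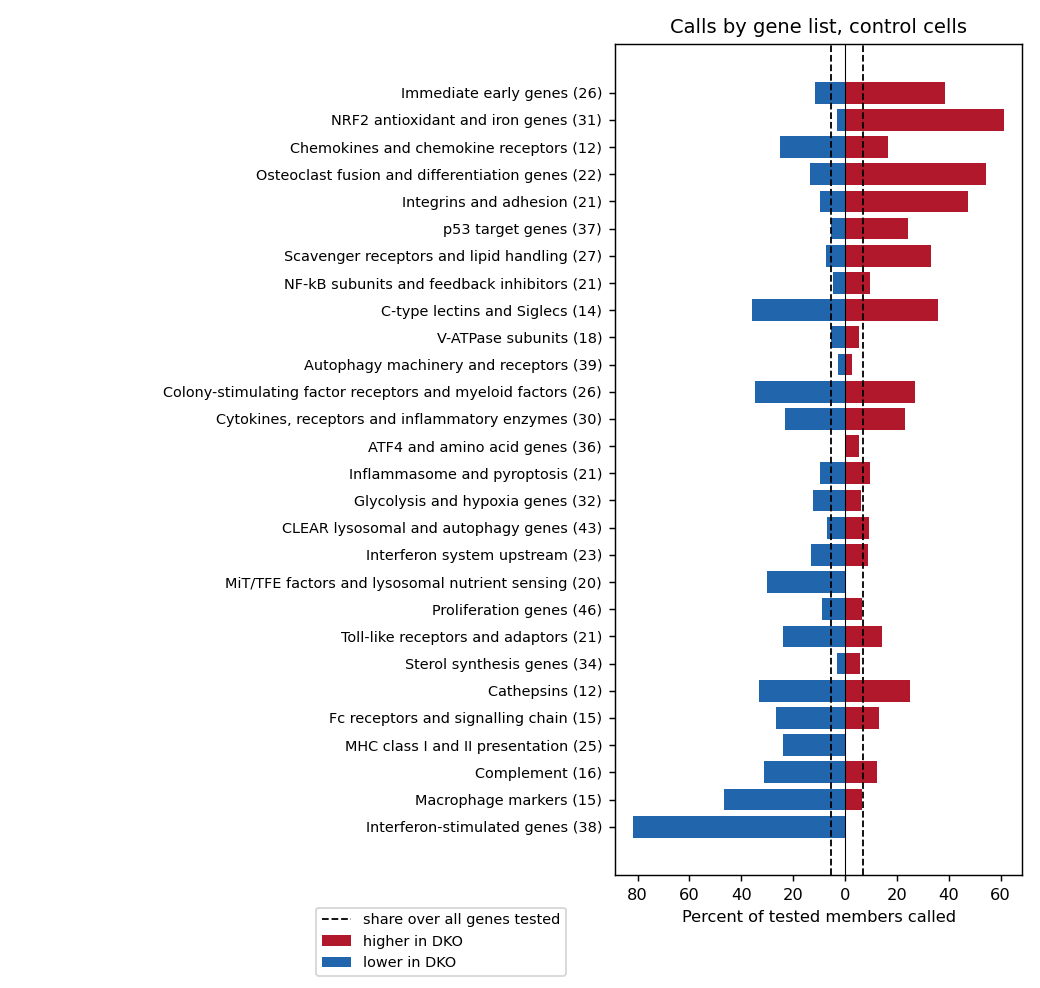
Percent of the tested members called higher (right) or lower (left) in DKO control cells for each gene group except the marker lists of other cell types, with the number tested in parentheses and groups ordered by their median difference. The dashed lines mark 6.85% and 5.37%, the shares over all genes tested. Among the groups drawn, the interferon-stimulated genes reach furthest to the left and the NRF2 group furthest to the right.

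The 6 etoposide libraries gave a second look at the same pair of lines. They share no library with the control comparison but come from the same 2 lines, so they are not independent of what distinguishes those lines. After etoposide 47.1% of all genes tested were called. Of the 1991 called genes that were also tested there, 1706 (85.7%) were called in the same direction and 51 in the opposite direction. For the genes higher in control cells, 85.9% were called higher after etoposide, against 23.7% of all genes tested there, and for the lower genes 85.4% were called lower, against 23.4%. Of the called genes with a log2 difference of at least 1 in size, 89.6% were. In the DKO etoposide group the sample titles hold both RAW264.7 and MEFs, whereas the other labels of these samples say RAW264.7. Their summed fibroblast markers were at 1.02 to 1.2 CPM, below the 1.93 to 2.05 CPM of the Null etoposide libraries, and their summed macrophage markers at 6689 to 7368 CPM.

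For 71 of the 186 named genes the genotype difference itself changed with the drug, tested as an interaction over the 12 libraries. Over all 18066 genes tested the share was 9.45% (3.07% with a positive and 6.39% with a negative change), but the named genes were chosen largely for large differences in the same control libraries, so the shares cannot be compared. The fitted difference of Myc was 5.39 in control cells and 3.15 after etoposide, and that of Plk2 was 4.30 and 0.89. Both were close to 0 in Null control cells, where the fitted value depends on the prior count. For Kif23 it turned from 0.79 to -1.92. Arhgap24 went from -6.11 to -2.56 and Cd36 grew from 3.88 to 5.02. The deficit of Tfeb narrowed from -1.96 to -0.79, whereas that of Tfe3, at -1.43 after etoposide, was not shown to change. The other genes with such a difference are given at the end.

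**Figure D5:**
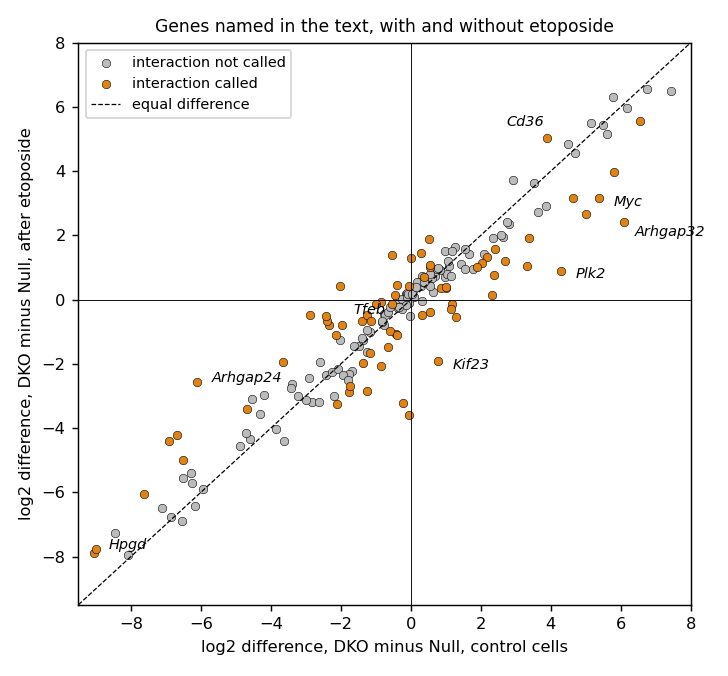
Log2 difference, DKO minus Null, in control cells (x axis) and after etoposide (y axis) for each gene named in the text. The dashed line marks equal differences, and the orange points are genes with an interaction at an adjusted p under 0.05. Hpgd lies at -9.04 and -7.89, Cd36 at 3.88 and 5.02 and Kif23 at 0.79 and -1.92.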

How the data were processed

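RNA-seq libraries were made from Null and DKO RAW264.7 cells, 3 per group, and grouped by their titles. The deposited table holds raw read counts per gene, which the authors made from paired-end reads. Their processing notes name HISAT2, featureCounts and the mm10 build, whereas the methods of the study name HTSeq. The annotation release and strand setting are not given in the sources used here, so reads of overlapping genes may be shared, and the largest share that could come from an overlapping gene is given where it matters. Control cells are called untreated in the labels and DMSO-treated in the methods, and the RNA kit of each library is not given in the sources used here.

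Genes passing the edgeR (4.0.16) expression filter were scaled by TMM and tested with limma-trend (3.58.1, R 4.3.3) on log2 CPM with a prior count of 3, with no covariates and Benjamini-Hochberg adjustment over all genes at 0.05. The 6 control libraries, with 29837255 to 58697226 counts, entered the fit. edgeR quasi-likelihood and DESeq2 (1.42.0) tests, other scalings, filters and prior counts, leaving out each library and a replicate block were alternatives. The code was tested on simulated data. Coordinates are from GENCODE on GRCm38, and promoters from RefSeq.

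Named genes were Tfeb and Tfe3 and the 15 largest differences each way. The latter were taken among called protein-coding genes of at least 5 CPM whose Null and DKO libraries did not overlap in level. Up to 6 called members with the largest differences in each list and members of the macrophage and MiT/TFE lists were also named. So were defining members that were not called and genes on in 1 line only. Irf7, Irf9, Ifit1, Trim30a, Tnfrsf11a, Atf3, Dusp6, Keap1 and Srxn1 were named after their values were seen. The comparison, gene lists and motifs were chosen with earlier results of these data known. Some items are not reported here.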

Additional observations from a re-analysis of the deposited data

Results flagged for a closer look

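For 71 of the 186 genes named above, the difference between DKO and Null cells after etoposide was not the one in control cells, by the interaction test over the 12 libraries (limma-trend with Benjamini-Hochberg adjustment). The genes were named largely for large differences in the same control libraries, so their number cannot be compared with that over all genes. Each value below is the change of that difference on the log2 scale, after etoposide minus control, from 3 libraries per group.

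Genes lower in DKO control cells whose fitted deficit narrowed included Tfeb by 1.16, Hpgd by 1.26, Htr1b by 1.43, Bhlhe41 by 2.68 and Arhgap24 by 3.66. For genes close to 0 in 1 line the fitted change depends on the prior count and the level in the other line. The fitted change alone therefore does not show a narrower difference for Htr1b (1.43), which was close to 0 in DKO control cells. The same holds for Col26a1 (1.71), Abcd2 (1.77), Gm45540 (2.72), Zhx2 (-1.13) and Arhgap32 (-3.83), which were on in 1 line only. After etoposide, mean levels in Null and DKO libraries were 17.3 and 0.212 CPM for Col26a1, and 2.42 and 0.0289 CPM for Abcd2. They were 1.07 and 0.00552 CPM for Gm45540, 0.154 and 9.72 CPM for Zhx2, and 0.220 and 1.43 CPM for Arhgap32. Among nutrient-sensing, protease and proton pump genes the changes were 0.74 for Sesn1, 1.31 for Ctsh and 0.78 for Atp6v0a1. Inflammatory enzymes and immune receptors that narrowed were Alox5 (1.71), Acod1 (1.74), Tlr8 (2.43), Cx3cr1 (0.40), H2-T23 (0.77), Itga4 (0.85), Blnk (1.91) and Cd83 (1.04). Car2 (1.54) and Scd1 (0.49) narrowed too. Uvrag (0.86), Clec4a1 (2.45) and Csf1r (0.59) moved from a negative to a positive difference.

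Deficits that widened were those of the Fc receptor genes Fcgr1 (-1.59), Fcgr2b (-1.14) and Fcgr3 (-0.94), of Irf8 (-0.65), Nlrc5 (-0.42), Ptgs1 (-1.09), Tlr13 (-0.59) and Tnfaip3 (-1.21), and of the helicase genes Mcm5 (-0.52) and Mcm6 (-0.82).

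Genes higher in DKO control cells whose fitted excess shrank were Ildr2 (-1.85), Myc (-2.31), Osbpl10 (-2.40), Ocstamp (-1.50), Ctsf (-0.66), Sqstm1 (-0.51), Egr2 (-2.18), Fos (-0.86), Fosl1 (-2.30), Dusp4 (-0.87), Lpl (-1.48), Ptgs2 (-0.92), Tirap (-0.62), Plk2 (-3.55), Eda2r (-1.65), Steap3 (-1.49) and Me1 (-0.83). Fcrl1 (-1.33), Fas (-1.86), Cdkn1a (-1.44) and Kif23 (-2.72) moved from a positive to a negative difference. The excess grew for Cd36 (1.13), Slc7a11 (1.36), Spi1 (0.45), Ifngr2 (0.32) and Keap1 (0.50).

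Of the genes not called in control cells, Cd14 (1.29), Tyrobp (0.46), Oasl1 (1.15) and Il1b (1.93) shifted upward and Egr1 (-3.55), Apoe (-0.70), Nlrp3 (-0.92), Mdm2 (-0.79) and Mki67 (-2.99) downward.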

How the results depend on the processing

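The 2031 calls (1139 higher, 892 lower) were 1158 to 2493 in fits that left out 1 library (671 to 1405 higher, 487 to 1088 lower), the lowest without Null replicate 2. Fitting all 12 libraries together gave 3490 (1974 higher, 1516 lower), and a minimum log2 difference of 1 gave 1083 (541 and 542). The cause of these shifts was not tested. With scaling by total counts 953 genes were higher and 1028 lower, and the median of all genes moved to -0.082. The same-numbered replicates did not deviate together (correlations -0.618, -0.0248 and -0.466). With 3 libraries per group and 84.6% of the within-group variance along 1 direction, these values cannot settle whether the numbers pair the libraries. The fit with a replicate block called 752 genes (397 higher, 355 lower), in which 44 of the 186 named genes lost their call. Of the 151 named genes called, 133 kept their call in all 6 fits that left out 1 library. The interaction gave 350 to 809 genes with a positive change when 1 library was left out, against 554. The count was 368 when Null control replicate 2 was left out, and Null etoposide replicate 3 gave the 350.

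Counts of the gene groups also moved with the method. With the replicate block, 15 interferon-stimulated genes were lower, 8 genes of the NRF2 group, 6 osteoclast genes, 6 immediate early genes, 4 integrin genes and 4 p53 genes were higher, and 0 CLEAR genes were called. In the fit of all 12 libraries 7 CLEAR genes were higher and 8 lower, 15 p53 genes were higher, 6 glycolysis genes and 6 chemokine genes were higher, and 5 sterol genes and 7 proliferation genes were lower. Of the interferon-sensing genes DESeq2 called 5 higher and scaling by total counts 0, and DESeq2 called 5 chemokine and 4 glycolysis genes higher and 3 autophagy and 3 ATF4 genes lower. With overlapping genes left out, 3 of 12 MHC genes and 5 of 17 myeloid genes were lower, and 2 of 26 CLEAR genes and 1 of 32 proliferation genes were higher. With chromosome 9 left out of the fit, 3 Toll-like receptor genes were lower.

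Genes that changed sign were not called in control cells. With scaling by total counts Cd14 was at -0.07 and Nfe2l2 at -0.04. Cd14 was at -0.00 with a minimum of 1 CPM and at -0.02 after thinning each library to the smallest total count, where Jun was at 0.05. In fits that left out 1 library the values ran for Cd14 from -0.18 to 0.28, Ctsb from -0.32 to 0.25, Egr1 from -0.23 to 0.17, Tlr4 from -0.42 to 0.14, Jun from -0.22 to 0.24. They ran for Nfe2l2 from -0.03 to 0.11, Rraga from -0.02 to 0.16, Mcoln1 from -0.11 to 0.02, Adgre1 from -0.30 to 0.03 and B2m from -0.61 to 0.11. With 3 libraries per group and 1 line per genotype, a gene that was not called is not shown to be equal.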
